A study of Mus musculus with 3 samples.

Results

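The late response of RAW264.7 cells to lipopolysaccharide (LPS) was read as the difference between the array of cells after 12 h of LPS and the array of cells at 0 h. The comparison covers every probe set that is not a control and has 1 annotated gene, which is 20380 of the 22690 probe sets on the array and 12393 genes. Of these genes, 8629 were measured, meaning that at least 1 of the 2 arrays gave a signal at or above 34.96, a floor set at the 40th percentile of all signals. The other 3764 were under the floor on both arrays and are given no difference.

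RAW264.7 is a virus-transformed mouse macrophage line. The study profiled it at 0, 2 and 12 h of LPS on 1-colour arrays, with total RNA as the starting material and 1 array per time. The 3 groups differ by the hours of LPS alone as labelled, and the LPS dose is not given in the sources used here. There was no replicate, so no test was made and no p-value is given. No array of cells kept for 12 h without LPS is among the samples, so LPS and time in culture cannot be told apart.

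LPS is the outer membrane glycolipid of Gram-negative bacteria. Macrophages sense it through Toll-like receptor 4 with Cd14 and Ly96, and adaptors that include Myd88 then switch on NF-kB and AP-1, which drive cytokine and chemokine genes within minutes to hours. A later wave follows when secreted type I interferon acts back on the cells and switches on genes whose promoters hold interferon-stimulated response elements, while LPS-treated macrophages are also known to slow their division.

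At 12 h, 260 genes were at least 2-fold higher than at 0 h, 3.01% of those measured, and 207 genes were at least 2-fold lower, 2.4%. In all, 5.41% passed 2-fold in either direction. Increases were the larger in size. At least 4-fold differences were reached by 67 higher genes (0.776%) and 6 lower genes (0.0695%), and at least 8-fold by 26 higher genes and by 1 lower gene, the urokinase gene Plau (357 at 0 h, 277 at 2 h and 40.4 at 12 h). The other probe set of Plau gave a log2 difference of -1.79 and the median of both -2.47, which is under 8-fold. Higher genes started from a low level, with a median signal of 74.4 at 0 h and 281 at 12 h, whereas lower genes had a median of 192 at 0 h and 75.8 at 12 h. For 62 of the higher genes the 0 h signal was under the floor, and for 33 of the lower genes the 12 h signal was, so that their fold is a lower bound and is written as "at least". As a scale for these sizes, the log2 difference varied between probe sets of the same gene with an SD of 0.34 (2730 genes). That value holds no variation between cultures, which was not measured. Of the 260 higher genes 142, and of the 207 lower genes 70, stayed past 2-fold under each of 8 other settings of scaling, floor and probe set choice in which they were measured. The pseudocount that replaced the floor took 110 of the lower genes and 71 of the higher genes under 2-fold, so decreases depended on it more often. A call lost in this way is given with its gene. A short list with none or 1 of its genes past 2-fold is close to the shares over all genes.

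**Figure D1:**
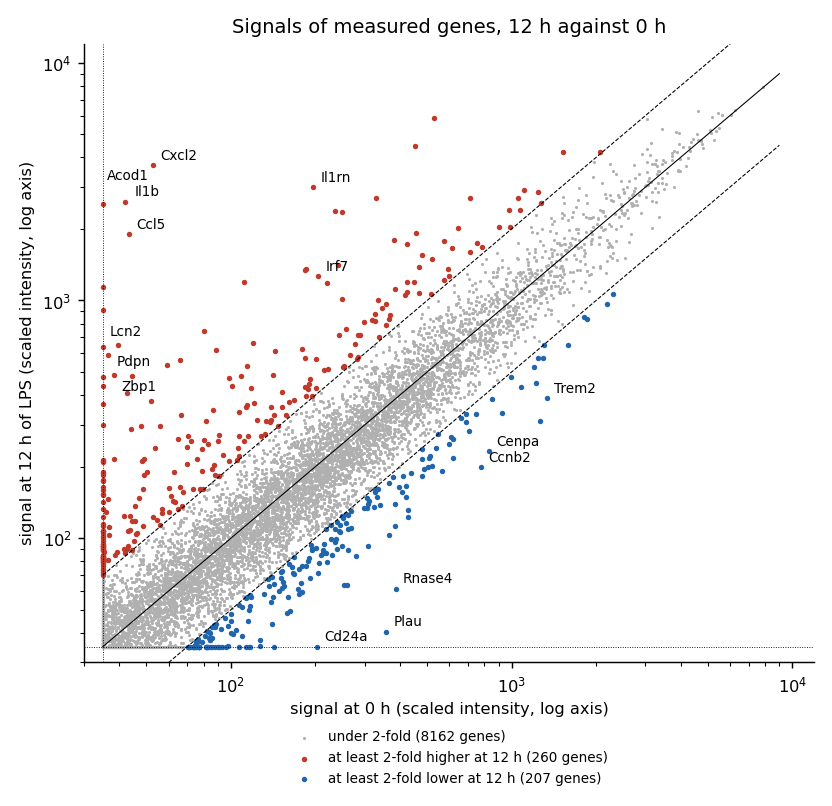
Scaled intensity of each of the 8629 measured genes at 0 h (horizontal log axis) and at 12 h of LPS (vertical log axis), 1 array each; dashed lines mark 2-fold, dotted lines the floor, and values under the floor are drawn on it. The 260 higher genes (red) lie up to at least 73.2-fold above the diagonal (Acod1), while the 207 lower genes (blue) have 1 member beyond 8-fold by its brightest probe set (Plau).

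Genes of the interferon response were higher at 12 h. Of 18 measured genes for interferon-induced antiviral effectors, 11 were at least 2-fold higher, none was at least 2-fold lower, and the median log2 difference was 1.93, against -0.05 over all measured genes. Some probe set names carry a letter suffix, _a_at for transcripts of 1 gene, or others such as _s_at and _x_at for possible cross-hybridisation. Without probe sets of either kind the list median was 1.21, and it was 1.22 when a pseudocount of 32 replaced the floor. It was the highest median of the 39 lists as reported and under 5 of 8 alternatives. It was exceeded by the GTPases at the 20th percentile floor (1.52 against 1.47), by the cytokines at the 60th percentile floor (2.68 against 1.21), and without suffixed probe sets by chemokines (1.49) and GTPases (1.25). At 2 h the same list had a median of -0.04 against the same 0 h array. Promoters of 3 of these genes are printed here because they hold letters that match the element this gene group is known for. The sequences are RefSeq promoters of build GRCm38.p6, 5′ to 3′ on the strand of the gene, and capitals mark GAAA, any 2 bases and GAAA again, or the reverse complement, the core of the interferon-stimulated response element.
Bst2, chr8:71537527-71537662, minus strand: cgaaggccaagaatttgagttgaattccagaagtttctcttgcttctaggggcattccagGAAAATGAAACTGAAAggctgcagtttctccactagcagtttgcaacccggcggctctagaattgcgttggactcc
Ifit3, chr19:34583313-34583476, plus strand: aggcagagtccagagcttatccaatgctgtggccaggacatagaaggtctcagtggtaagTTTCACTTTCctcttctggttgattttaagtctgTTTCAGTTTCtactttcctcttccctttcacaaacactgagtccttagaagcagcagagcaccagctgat
Ifit1, chr19:34640725-34640873, plus strand: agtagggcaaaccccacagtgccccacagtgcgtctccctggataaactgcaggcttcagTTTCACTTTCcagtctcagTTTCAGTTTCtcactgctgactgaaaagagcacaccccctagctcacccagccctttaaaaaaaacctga
The matches begin 130 and 124 bases before the start site in Bst2, where they overlap each other, 156 and 122 bases before it in Ifit3, and 104 and 85 bases before it in Ifit1. Of all 32851 promoters in the table, 2.98% hold the motif on either strand within 250 bases upstream. The share was 2.72% (246 of 9052) for promoters of measured genes, 9.71% (27 of 278) for those of genes at least 2-fold higher and 0.909% (2 of 220) for those of genes at least 2-fold lower. In the antiviral list it was 31.6% (6 of 19 promoters), and 38.5% (5 of 13) for its members at least 2-fold higher. Of those, Oasl1, Isg20, Oasl2, Ifit2 and Cmpk2 had no match, and Usp18 had no promoter to search. In the list of interferon-inducible GTPases the share was 75% (6 of 8). Lists that were not higher had 9.52% (4 of 42, cytosolic ribosomal genes), 6.25% (3 of 48, mitosis) and 5.45% (3 of 55, replication). A share near that of all higher genes was thus found outside them too. A match describes the letters only, and binding was not measured.

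Bst2, or tetherin, which holds budding virions at the cell surface, had signals of 120.1 at 0 h, 112 at 2 h and 663 at 12 h, 5.52-fold higher. Usp18, the protease that removes ISG15 from proteins and dampens interferon receptor signalling, had signals of 219 at 0 h, 146 at 2 h and 1181 at 12 h, 5.39-fold higher. Both had their high signal on the 12 h array alone. Isg20, an exonuclease that degrades RNA, had signals of 38.3 at 0 h, 52.7 at 2 h and 215 at 12 h (5.63-fold higher). The RNA-binding translation inhibitors Ifit3 and Ifit1 reached 5.31-fold higher (55.7 at 0 h, 45.5 at 2 h, then 296 at 12 h) and 4.98-fold higher (66.4 at 0 h, 102 at 2 h and 331 at 12 h). Their neighbour Ifit2 was 4.37-fold higher. Most of the group thus shared one course, with most of the increase after 2 h. Oasl1, of the oligoadenylate synthetase family, departed from it: it was already high at 2 h (241 at 0 h, 1308 at 2 h and 1415 at 12 h, 5.87-fold higher at 12 h). Oas1a had signals of 752 at 0 h, 785 at 2 h and 1739.7 at 12 h (2.31-fold higher) and Oasl2 was at least 4.72-fold higher (25 at 0 h, 20.2 at 2 h, then 165 at 12 h), and because related Oas genes are alike in sequence, probe sets of this family may not separate them. Rsad2 (viperin, which makes a chain-terminating nucleotide) was 4.82-fold higher and Cmpk2, the nucleotide kinase beside it on chromosome 12, 3.33-fold higher. The remaining measured members lay between -0.03 (Ifitm1) and 0.92 (Oas3) on the log2 scale, with Oasl2 at 0.96 and Cmpk2 at 0.93 when the floor was the 60th percentile. Mx1 and Mx2 were under the floor on all 3 arrays.

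**Figure D2:**
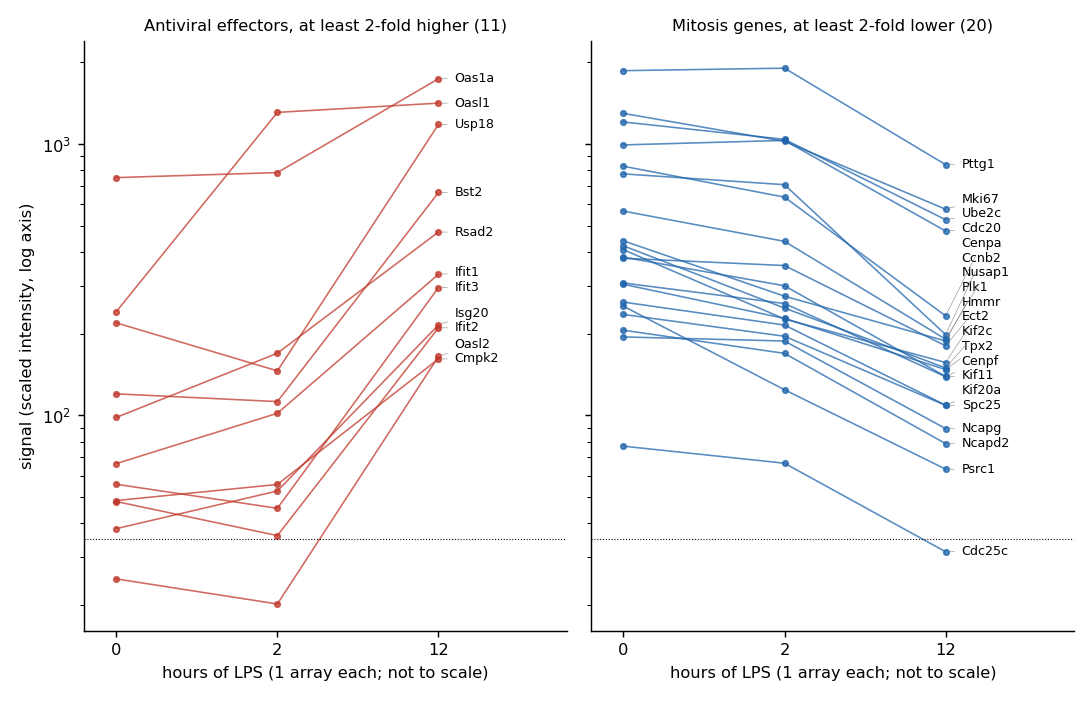
Scaled intensity (log axis) at 0, 2 and 12 h of LPS, 1 array each, of the 11 antiviral genes at least 2-fold higher at 12 h (left) and the 20 mitosis genes at least 2-fold lower (right); the dotted line is the floor and each line is 1 gene. Apart from Oasl1, the antiviral genes gain most of their height between 2 and 12 h, and the mitosis genes have their lowest signal at 12 h.

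Interferon-inducible GTPases, which attack the vacuoles that hold intracellular parasites and bacteria, were higher too: 5 of 8 measured members by at least 2-fold, with a median log2 difference of 1.25. Gbp7 was at least 5.37-fold higher (30.2 at 0 h, 52.1 at 2 h and 188 at 12 h), Gbp3 at least 3.08-fold higher and Gbp2 at least 2.4-fold higher. Igtp, or Irgm3, had signals of 113 at 0 h, 81.4 at 2 h and 357 at 12 h (3.15-fold higher), and Irgm1 had 183 at 0 h, 199.8 at 2 h and 433 at 12 h (2.36-fold higher). Iigp1 did not share this course (89.1 at 0 h, 54.9 at 2 h and 87.1 at 12 h). The median of its probe sets took Gbp2 under 2-fold, the 60th percentile floor took Gbp3 there (log2 0.35), and Gbp7 was 1.58 by the median of its probe sets. Gbp genes are close copies that probe sets may share.

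Sensors of foreign nucleic acid had 4 of 9 measured members at least 2-fold higher. Zbp1, which binds nucleic acid in the Z form, had signals of 38.3 at 0 h, 30.2 at 2 h and 486 at 12 h (12.7-fold higher), the largest difference of the list, with a log2 difference of 2.24 to 3.73 under the alternatives. Dhx58 (LGP2), a regulator of RNA sensing, had signals of 72.2 at 0 h, 44.8 at 2 h and 257 at 12 h (3.55-fold higher), lowest at 2 h. Ifih1 (MDA5), which binds long double-stranded RNA, was by contrast highest at 2 h (141 at 0 h, 612 at 2 h and 484 at 12 h, 3.44-fold higher at 12 h). Ifi204, of the DNA-sensing family of interferon-inducible proteins, was at least 5.04-fold higher (4.8 at 0 h, 7.4 at 2 h and 176 at 12 h). Ifi202b of the same family, which the list did not hold, had signals of 185 at 0 h, 227 at 2 h and 1352 at 12 h (7.32-fold higher). Members of this family are related in sequence and probe sets may share signal, so the separate values of these last 2 genes are uncertain. Among transcription factors of the pathway, only 2 of 13 measured passed 2-fold: Irf7, the amplifier of type I interferon genes (204 at 0 h, 230.3 at 2 h and 1268 at 12 h, 6.2-fold higher), and Stat2 (62.5 at 0 h, 63.7 at 2 h and 190.4 at 12 h, 3.04-fold higher). Irf9, a DNA-binding factor of interferon signalling, was 1.49-fold higher, Irf1 was 1.07-fold higher, and Irf2 was 1.76-fold lower. The receptor subunit genes Ifnar1 and Ifnar2 were 1.35-fold lower and 1.56-fold lower. Ifnb1, the interferon beta gene, was near the floor throughout (34.4 at 0 h, 54.1 at 2 h and 38.6 at 12 h).

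Presentation on MHC class I was higher in a graded way. Of 15 measured members, 13 were above 0 and 2 reached 2-fold: Tap1, the peptide transporter subunit (128 at 0 h, 93.9 at 2 h and 270.0 at 12 h, 2.1-fold higher), and Tapbp, tapasin, which bridges it to class I (515 at 0 h, 477 at 2 h and 1063 at 12 h, 2.07-fold higher). The immunoproteasome subunits Psmb8 and Psmb10 were 1.79-fold higher and 1.59-fold higher, while Psmb9 was 1.08-fold lower. Tapbp was under 2-fold with the median over its probe sets, and Tap1 with the pseudocount (log2 0.91). None of 9 measured MHC class II genes reached 2-fold. H2-Eb1 was 1.66-fold higher and Ifi30, a lysosomal thiol reductase for antigens, 1.49-fold lower.

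Mitosis genes were the lowest of the lists. All 53 measured members of the list of mitosis and kinetochore genes had a lower signal at 12 h than at 0 h, where 54.7% of all measured genes did. At least 2-fold lower were 20 of the 53, and the median log2 difference was -0.89, with a range of -1.99 to -0.06. At 2 h the median was -0.24 against the same 0 h array. Counted over probe sets, 88 of 89 were below 0 at 12 h, and of the 36 that were not the brightest of their gene, 35 were. Under quantile normalization 52 of 53 genes were below 0. In bulk RNA, fewer cells in division and less RNA per dividing cell cannot be told apart. Cell cycle genes of the G2 and M phases are known to be repressed through an element named the cell cycle homology region. Its letters were searched here as TTTGAA or TTCGAA on either strand. Promoters of 3 members at least 2-fold lower that hold a match (capitals) are shown. They are RefSeq promoters of GRCm38.p6, 5′ to 3′ on the strand of the gene.
Psrc1, chr3:108383748-108383837, plus strand: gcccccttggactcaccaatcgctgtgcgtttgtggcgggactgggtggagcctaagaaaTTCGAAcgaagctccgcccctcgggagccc
Ccnb2, chr9:70421656-70421781, minus strand: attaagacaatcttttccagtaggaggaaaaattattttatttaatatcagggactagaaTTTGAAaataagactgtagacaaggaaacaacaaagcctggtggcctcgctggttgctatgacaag
Kif2c, chr4:117178810-117178935, minus strand: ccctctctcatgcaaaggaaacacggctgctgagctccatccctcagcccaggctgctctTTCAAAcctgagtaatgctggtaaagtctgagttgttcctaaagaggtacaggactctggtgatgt
The match begins 30 bases before the start site in Psrc1, 167 in Ccnb2 and 103 in Kif2c. Either form occurs in 17.1% of all 32851 promoters within 250 bases upstream and in 12.0% (1087 of 9052) of those of measured genes. It was in 43.8% (21 of 48) of the promoters of the mitosis list, in 57.9% (11 of 19) of those of its members at least 2-fold lower, and in 34.5% (10 of 29) of those of its other members. Over all genes at least 2-fold lower the share was 17.3% (38 of 220), and in the list of replication genes 14.5% (8 of 55). It was not high in the mitosis list alone: the interferon-inducible GTPases, a higher list, had 50% (4 of 8). The antiviral list had 10.5% (2 of 19), cytosolic ribosomal genes 7.14% (3 of 42) and all genes at least 2-fold higher 9.71% (27 of 278). The 2 motifs searched, this one and that of the interferon element, overlap in 18 promoters of the table. A match to this motif too describes the letters only, and neither binding nor repression was measured.

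Ccnb2, cyclin B2, the partner of Cdk1 at entry into mitosis, had signals of 776 at 0 h, 708 at 2 h and 199 at 12 h, 3.91-fold lower. Psrc1, a microtubule-binding spindle protein, had signals of 253 at 0 h, 124 at 2 h and 63.4 at 12 h (3.98-fold lower), and was the member with the lowest ratio. Cenpa, the histone H3 variant that marks centromeres, had signals of 828 at 0 h, 637 at 2 h and 233 at 12 h (3.56-fold lower). In these 3 genes the 12 h array lay well under both earlier arrays. Cdc20, which activates the anaphase-promoting complex, was near its starting level at 2 h and 2.08-fold lower at 12 h (993 at 0 h, 1031 at 2 h and 478 at 12 h). Pttg1, securin, the inhibitor that this complex destroys, took the same course (1863 at 0 h, 1903 at 2 h and 839.6 at 12 h, 2.22-fold lower). Plk1, a kinase of spindle assembly, was already lower at 2 h (439.8 at 0 h, 275 at 2 h and 188 at 12 h, 2.34-fold lower at 12 h). Ect2, an exchange factor needed for the cleavage furrow, did likewise (408 at 0 h, 227 at 2 h and 157 at 12 h, 2.6-fold lower). Among spindle motors, Kif2c was 2.82-fold lower, Kif20a 2.4-fold lower and Kif11 2.21-fold lower. Of the condensin subunits, Ncapd2 was 2.62-fold lower and Ncapg 2.18-fold lower, while Ncaph was 1.5-fold lower and Smc2 1.35-fold lower. Cenpf at the kinetochore was 2.75-fold lower and Mki67, the proliferation antigen Ki-67, 2.26-fold lower (1297 at 0 h, 1023 at 2 h and 575 at 12 h). Cdk1 itself was 1.43-fold lower (1194 at 0 h, 1147 at 2 h, then 837 at 12 h), and the smallest differences were those of Cenph (1.09-fold lower) and Kif23 (1.04-fold lower). By the median over their probe sets, Nusap1, a spindle protein (2.96-fold lower by its brightest), had a log2 difference of -0.93, Kif2c one of -0.54 and Ncapg one of -0.74. Without suffixed probe sets Pttg1 was at -0.11, and with the pseudocount Kif11 was at -0.99.

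Genes of DNA replication were lower to a smaller degree, and not at 12 h alone. At 2 h their median log2 difference was -0.30 against the same 0 h array, with 5 members at least 2-fold lower. At 12 h, 40 of 52 measured members were below 0, with a median of -0.27. Only 1 reached 2-fold at 12 h: Tk1, thymidine kinase (746 at 0 h, 555 at 2 h and 333 at 12 h, 2.24-fold lower). The clamp loader subunit Rfc5 was 1.83-fold lower, Pole, the catalytic subunit of polymerase epsilon, 1.79-fold lower, and Dbf4, the activator of the Cdc7 kinase, 1.79-fold lower. Several S phase genes showed no such shift. Rrm2, a subunit of ribonucleotide reductase, was 1.02-fold higher, Mcm2, of the replicative helicase, 1.02-fold lower, and Pcna, the sliding clamp, 1.14-fold higher. Cdc6, which loads the helicase at origins, was low at 2 h only (136 at 0 h, 47.3 at 2 h and 161 at 12 h).

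Regulators of the cell cycle moved in both directions, with 5 of 28 measured members at least 2-fold higher and 4 at least 2-fold lower. The inhibitor Cdkn2c (p18) had signals of 506 at 0 h, 348 at 2 h and 218 at 12 h (2.32-fold lower). The antiproliferative gene Tob1 had signals of 102 at 0 h, 34.7 at 2 h and 39.5 at 12 h (2.58-fold lower) and Ccng2, cyclin G2, which is high in resting cells, was at least 2.34-fold lower. With the pseudocount the 4 lower members became 1, as Tob1 was at -0.91 and Ccng2 at -0.19 on the log2 scale, and Tob1 was at -0.27 with the 60th percentile floor. Gadd45b, a growth-arrest and stress gene of the same list, went the other way, 7.28-fold higher (51.9 at 0 h, 1021 at 2 h and 378 at 12 h), or 1.11 on the log2 scale by the median over its probe sets. Cdkn1a (p21) was high at 2 h and back at 12 h (596 at 0 h, 1325 at 2 h, then 638 at 12 h), and Ccnd1, cyclin D1, was 1.58-fold lower. The survival kinase Pim2 climbed over both steps (64.8 at 0 h, 108 at 2 h and 261 at 12 h, 4.02-fold higher), whereas Pim1 peaked at 2 h (16.3 at 0 h, 871 at 2 h and 209 at 12 h, at least 5.97-fold higher at 12 h). Pim3 was 2.14-fold higher by a probe set that carries a cross-hybridisation suffix. Without suffixed probe sets its log2 difference was -0.03. The cell cycle factor E2f3 was 2.11-fold higher, a size lost with the 60th percentile floor and the pseudocount. Of 27 apoptosis genes, 2 were at least 2-fold higher (7.41%) and 1 lower (3.7%), against 3.01% and 2.4% of all measured genes. The higher ones were Bcl2l1, the survival protein BCL-xL (139 at 0 h, 191 at 2 h and 355 at 12 h, 2.56-fold higher), and the LPS-sensing caspase Casp4 (2.18-fold higher, lost with the 60th percentile floor and the pseudocount). The death-promoting Pmaip1 (Noxa) was lower (178 at 0 h, 176 at 2 h and 64.5 at 12 h, 2.75-fold lower).

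**Figure D3:**
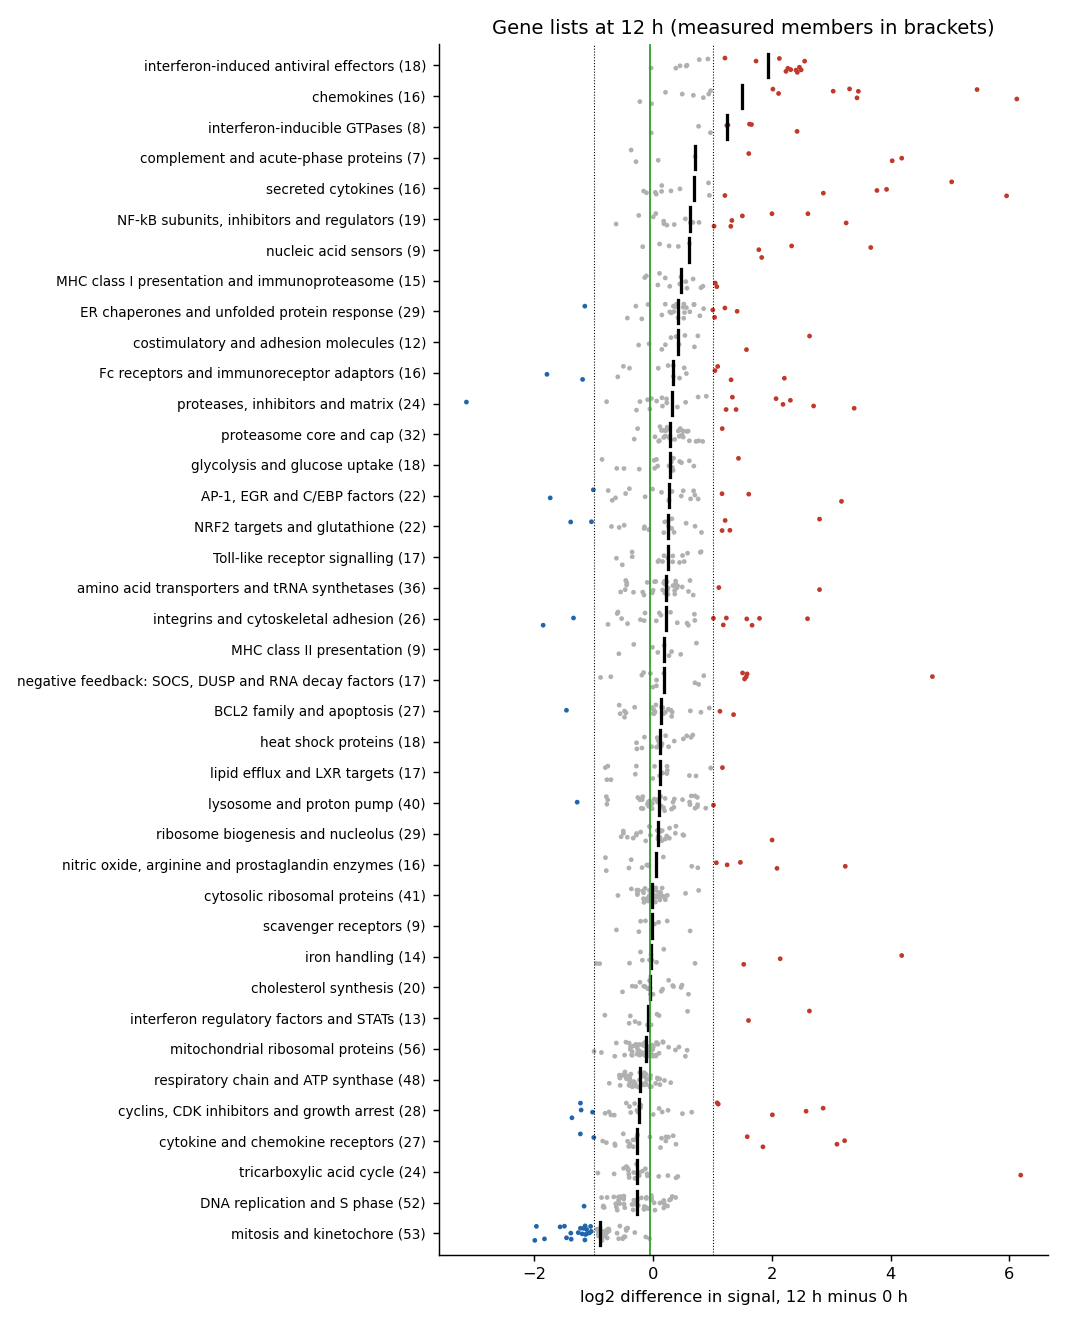
Log2 difference in signal, 12 h minus 0 h (1 array each), of the measured members of each of the 39 gene lists; red points are at least 2-fold higher, blue at least 2-fold lower, black bars are list medians, the green line is the median of all measured genes (-0.05) and dotted lines mark 2-fold. As reported, the antiviral list has the highest median (1.93) and the mitosis list the lowest (-0.89).

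Genes of LPS sensing gave small differences by their brightest probe sets. Of 17 measured genes of Toll-like receptor signalling, 13 were above 0, with a median of 0.25, and none reached 2-fold, which 5.41% of all measured genes did, so that this count is near the background. Over their probe sets, 2 of 29 were at least 2-fold lower. Tlr4 itself was low at 2 h and partly back at 12 h (251 at 0 h, 82.2 at 2 h and 175 at 12 h, 1.43-fold lower). Tlr2, the receptor for bacterial lipopeptides, was high at 2 h and 1.54-fold lower at 12 h (994 at 0 h, 2191 at 2 h and 647 at 12 h). Cd14 was 1.36-fold higher (4599 at 0 h, 4998 at 2 h and 6259 at 12 h), Ly96 1.26-fold higher and Myd88 1.07-fold higher. The largest increases of the list were those of Tlr1 (1.75-fold higher) and the kinase adaptor Pik3ap1 (1.73-fold higher).

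Receptors for cytokines and chemokines split: of 27 measured members, 4 passed 2-fold upward and 2 downward, with a median log2 difference of -0.27. Tnfrsf1b, TNF receptor 2, was higher at each step (79.9 at 0 h, 243 at 2 h and 748 at 12 h, 9.35-fold higher). Ccr1, a receptor for Ccl3 and Ccl5, was under the floor at both earlier times (32.8 at 0 h, 23.3 at 2 h and 299 at 12 h, at least 8.56-fold higher). Csf2rb, the shared beta chain of the GM-CSF, IL-3 and IL-5 receptors, was at least 3.0-fold higher. The scavenging chemokine receptor Ccrl2 peaked at 2 h (35.8 at 0 h, 327 at 2 h and 129 at 12 h, 3.6-fold higher at 12 h). On the lower side stood Tgfbr1, the TGF-beta type I receptor (188 at 0 h, 154 at 2 h and 80.1 at 12 h, 2.34-fold lower), and the fractalkine receptor Cx3cr1 at the very threshold (547 at 0 h, 482 at 2 h and 274 at 12 h, 2.0-fold lower). With the pseudocount Cx3cr1 and Tgfbr1 (log2 -0.97) were under 2-fold, and with the 60th percentile floor Ccrl2 (0.61) and Csf2rb (0.31) were. Csf1r, which macrophages need to survive, was 1.26-fold lower and Ifngr1 1.8-fold lower.

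Among Fc receptors and lectins with their adaptors, 4 of 16 were at least 2-fold higher and 2 lower. Clec4n (dectin-2), which binds fungal mannans, was flat at 2 h and 4.63-fold higher at 12 h (114 at 0 h, 96.1 at 2 h and 528 at 12 h). Clec4e (Mincle), a receptor for mycobacterial glycolipid, had signals of 787 at 0 h, 2277 at 2 h and 1671 at 12 h (2.12-fold higher). Fcgr1, the high-affinity IgG receptor, was 2.48-fold higher (289 at 0 h, 190.2 at 2 h, then 718 at 12 h), and Fcer1g, the signalling chain it shares with Clec4n and Clec4e, 2.06-fold higher (989 at 0 h, 1338 at 2 h and 2036 at 12 h), a size lost under quantile normalization (log2 0.98). The inhibitory receptor Cd300a was 2.28-fold lower (609 at 0 h, 471 at 2 h and 267 at 12 h). Trem2, a lipid receptor, was 3.46-fold lower (1338 at 0 h, 1170.0 at 2 h and 387 at 12 h) when read from the brightest probe set. That probe set carries a cross-hybridisation suffix, and the other one, near the floor, gave a log2 difference of 0.24.

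Matrix and protease genes held both Plau and several genes that were under the floor at 0 h. Of 24 measured, 8 were at least 2-fold higher and 1, Plau, lower. Its receptor Plaur was instead 4.2-fold higher (456 at 0 h, 1811 at 2 h, then 1917 at 12 h), and the plasminogen activator inhibitor Serpinb2 at least 10.5-fold higher (5.89 at 0 h, 15.9 at 2 h and 366 at 12 h). Enzyme, receptor and inhibitor of this system thus differed in direction. Mmp9, a gelatinase, was 6.51-fold higher (44.2 at 0 h, 55.4 at 2 h and 288 at 12 h), Mmp14, the membrane-bound collagenase, at least 4.56-fold higher (27.1 at 0 h, 59.4 at 2 h, then 159 at 12 h), and the macrophage elastase Mmp12 at least 2.63-fold higher. Thbs1, thrombospondin 1, a matrix protein that activates TGF-beta, was at least 4.97-fold higher (12.4 at 0 h, 23.1 at 2 h and 174 at 12 h). Serpinb9, the inhibitor of granzyme B, was 2.52-fold higher. Outside this list, Procr, the endothelial protein C receptor, was 8.56-fold higher (65.9 at 0 h, 86.1 at 2 h, then 564 at 12 h), and Cfb, factor B of the alternative complement pathway, at least 3.05-fold higher. With the 60th percentile floor Mmp14 (log2 0.91), Mmp12 (0.12) and Cfb (0.34) were under 2-fold.

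Integrin chains differed in direction. The beta 2 family was higher: Itgam (CD11b) with 168 at 0 h, 187 at 2 h and 380.2 at 12 h (2.27-fold higher), Itgax (CD11c) with 69.7 at 0 h, 87.8 at 2 h and 241 at 12 h (3.46-fold higher) and their shared beta chain Itgb2 with 1268 at 0 h, 1565 at 2 h and 2563 at 12 h (2.02-fold higher). Itgb7 was at least 6.07-fold higher (18 at 0 h, 79 at 2 h, then 212 at 12 h) and Itga5, the fibronectin receptor chain, peaked at 2 h (107 at 0 h, 645 at 2 h and 339.6 at 12 h, 3.17-fold higher at 12 h). In the other direction, Itga6, a laminin receptor chain, was 3.61-fold lower (127 at 0 h, 87.9 at 2 h, then 35.1 at 12 h) and Itgb5, a vitronectin receptor chain, 2.54-fold lower (422 at 0 h, 374 at 2 h and 166 at 12 h). Itgb2 was at 0.87 on the log2 scale under quantile normalization and Itga6 at -0.58 with the 60th percentile floor, and without suffixed probe sets Itga5 was at 1.02 and Itgb5 at -2.22. The common chain Itgb1 was 1.69-fold lower and Itgav 1.52-fold lower. Of the whole list of integrins and adhesion genes, 7 of 26 were at least 2-fold higher and 2 lower, the cross-linker Actn1 (2.35-fold higher) and the actin-binding Marcksl1 (2.98-fold higher) among the former.

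Secreted mediators and their regulators were the other broad group of increases. Of 16 measured chemokines, 8 were at least 2-fold higher (median 1.49, or 0.73 with the pseudocount), and of 16 cytokines, 6 were (median 0.69). Their courses differed. The monocyte chemokine Ccl7 was flat at 2 h and 10.8-fold higher at 12 h (44.4 at 0 h, 53.3 at 2 h, then 479.6 at 12 h), and Ccl2, which acts on the same receptor, was higher at each step (452 at 0 h, 1672 at 2 h and 4479 at 12 h, 9.91-fold higher). Csf3, the granulocyte growth factor G-CSF, was at least 32.7-fold higher (8.89 at 0 h, 248 at 2 h and 1142 at 12 h), with its highest signal at 12 h. By contrast Tnf (184 at 0 h, 3346 at 2 h and 1343 at 12 h), the interferon-inducible chemokine Cxcl10 (209 at 0 h, 2194 at 2 h, then 408 at 12 h) and Lif (9.19 at 0 h, 721 at 2 h and 38.7 at 12 h) had their highest signal at 2 h. Of 19 measured NF-kB genes, 7 were at least 2-fold higher (median 0.63), led by Nfkbiz, an atypical inhibitor and cofactor that also peaked at 2 h (42.7 at 0 h, 1458 at 2 h and 406 at 12 h, 9.53-fold higher). Of 17 feedback genes 5 were higher (median 0.18): the receptor inhibitor Socs3 (at least 26.1-fold higher), the RNA decay factors Zfp36 (2.96-fold higher) and Zc3h12a (at least 2.91-fold higher), and the phosphatases Dusp16 (3.0-fold higher, 79.1 at 0 h, 139 at 2 h, then 237 at 12 h) and Dusp2 (2.84-fold higher, 75.8 at 0 h, 692 at 2 h and 215 at 12 h). The 2 phosphatases had opposite courses after 2 h. Of 12 costimulatory genes 2 were higher, Cd40 (6.21-fold higher, 47.8 at 0 h, 231 at 2 h, then 297 at 12 h) and Cd274, the PD-1 ligand (2.97-fold higher, 41.6 at 0 h, 65.9 at 2 h, then 124 at 12 h), and of 7 complement and acute-phase genes 3 were, Saa3, Lcn2 and Cfb, with a list median of 0.71 that became -0.10 with the pseudocount. Of 18 glycolysis genes 1 was, the glucose carrier Slc2a1 (2.71-fold higher, 299 at 0 h, 480.0 at 2 h and 810.0 at 12 h), with a list median of 0.29. Of 36 amino acid transporter and tRNA synthetase genes 2 were, Slc7a11 and the stress factor Ddit3 (2.15-fold higher), and of 29 ribosome biogenesis genes 1, Rrp9 (4.01-fold higher). With 3.01% of all measured genes at least 2-fold higher, the counts of the glycolysis, amino acid and ribosome biogenesis lists are near the background. None of 9 scavenger receptor genes and none of 18 heat shock genes reached 2-fold (medians -0.03 and 0.12). With the 60th percentile floor, Cd274 (log2 0.55), Zc3h12a (0.26), Ddit3 (0.20) and Rrp9 (0.79) were under 2-fold, and Socs3 was at 3.73 without suffixed probe sets.

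Iron transporters diverged. Slc11a1 (NRAMP1), which pumps metal ions out of the phagosome, had signals of 521 at 0 h, 731 at 2 h and 1499.6 at 12 h (2.88-fold higher), and Slc11a2 (DMT1), which brings iron into the cytosol, 109 at 0 h, 279 at 2 h and 479.6 at 12 h (4.41-fold higher). That probe set of Slc11a2 carries the suffix _a_at, and its other 2 probe sets gave smaller log2 differences of 1.11 and 1.20 against 2.14. Slc40a1, ferroportin, the iron exporter, was 1.94-fold lower (138 at 0 h, 67.8 at 2 h and 71.3 at 12 h), lower at both times. The hemochromatosis gene Hfe was 1.87-fold lower.

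In the lysosome list, 1 of 40 measured genes was at least 2-fold higher and 1 lower, with a median of 0.10. The protease Lgmn (legumain) had signals of 1584 at 0 h, 1433 at 2 h and 652 at 12 h (2.43-fold lower). Lipa, which releases cholesterol from its esters, was 1.72-fold lower and the alpha-mannosidase Man2b1 1.73-fold lower, while Psap, the precursor of saposins, was 1.85-fold higher. Acp5, tartrate-resistant acid phosphatase, was at least 2.02-fold higher. Of 17 genes of lipid efflux, Abca1, the cholesterol exporter, was 2.25-fold higher (63.2 at 0 h, 79.9 at 2 h and 142 at 12 h), under 2-fold when its probe sets were combined by their median. Npc2, which carries cholesterol out of the lysosome, was 1.96-fold higher (1961 at 0 h, 1944 at 2 h and 3836 at 12 h). None of 20 cholesterol synthesis genes reached 2-fold (median -0.05). Lss, lanosterol synthase, was 1.51-fold higher.

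Genes of protein folding and turnover were mostly higher, by small amounts. In the proteasome list 30 of 32 genes were above 0, where 45.3% of all measured genes were, with a median of 0.29, and 1 reached 2-fold, the cap subunit Psmd1 (713 at 0 h, 702 at 2 h and 1597 at 12 h, 2.24-fold higher). The core subunit Psma6 was 1.78-fold higher and Psma7 1.65-fold higher, and the cap subunit Psmd11 1.7-fold higher. Among ER chaperones and genes of the unfolded protein response, 24 of 29 were above 0 (median 0.42), with 4 at least 2-fold higher and 1 lower. Of the 31 measured probe sets in this list that were not the brightest of their gene, 19 were above 0 and 12 below. In the proteasome list 17 of 19 such probe sets were above 0. Creld2, a protein induced by ER stress, had signals of 450.4 at 0 h, 429 at 2 h and 1201 at 12 h (2.67-fold higher), and the co-chaperone Dnajb9 142 at 0 h, 105 at 2 h and 329 at 12 h (2.31-fold higher). Syvn1, the ubiquitin ligase of ER-associated degradation, was 2.01-fold higher. With the pseudocount the 4 higher became 2 and the 1 lower became 0, where Syvn1 had a log2 difference of 0.87 and Atf6 one of -0.93. Dnajc3 was 2.05-fold higher by its brightest probe set, yet the median over its 5 probe sets was -0.22. The stress sensor Atf6 was lower (201 at 0 h, 126 at 2 h and 90.6 at 12 h, 2.22-fold lower) and the splice-activated factor Xbp1 was 1.35-fold lower.

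Mitochondrial genes were mostly lower, by small amounts, where 54.7% of all measured genes were below 0. None of 48 measured genes of the respiratory chain and ATP synthase reached 2-fold, yet 41 were below 0, with a median of -0.23. Ndufa5 of complex I was 1.67-fold lower (362 at 0 h, 359 at 2 h and 217 at 12 h), Ndufs7 1.48-fold lower, Ndufa10 1.47-fold lower and Uqcrc1 of complex III 1.47-fold lower. In the tricarboxylic acid cycle list, 19 of 24 were below 0 (median -0.27). Suclg2, a subunit of succinyl-CoA ligase, was 1.91-fold lower (259 at 0 h, 153 at 2 h and 136 at 12 h), fumarase Fh1 1.41-fold lower and Sdhd, of succinate dehydrogenase, 1.37-fold lower. The list also holds Mdh1, the cytosolic malate dehydrogenase, which was 1.58-fold lower. The member past 2-fold in that list was Acod1, the itaconate enzyme (at least 73.2-fold higher). Mitochondrial ribosomal genes had 42 of 56 below 0 (median -0.12), led by Mrps15 (1.99-fold lower) and Mrpl20 (1.83-fold lower). Under median scaling 36 of 56 were below 0, with a median of -0.07, and under quantile normalization 39 of 56. At 2 h their median was -0.14 against the same 0 h array, so the shift was not particular to 12 h. Cytosolic ribosomal genes lay on both sides of 0 (median -0.02, 22 of 41 below), with 17 of 41 below 0 under median scaling and 31 of 41, with a median of -0.10, under quantile normalization, so they are given no direction. The median of all measured genes was -0.05.

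Redox and arginine enzymes were mixed. Slc7a11, the cystine importer that feeds glutathione synthesis, was higher at each step (88.4 at 0 h, 340.0 at 2 h and 617 at 12 h, 6.98-fold higher), while Gclc, the rate-limiting enzyme of that synthesis, was lower at each (478 at 0 h, 266 at 2 h and 182 at 12 h, 2.62-fold lower). Gpx4, the glutathione peroxidase that repairs lipid peroxides, was 2.06-fold lower (659.8 at 0 h, 677 at 2 h and 321 at 12 h), a size lost under median scaling. Sod2, mitochondrial superoxide dismutase, was 2.45-fold higher (979 at 0 h, 1522 at 2 h and 2399 at 12 h), Srxn1 2.32-fold higher and the autophagy receptor Sqstm1 2.24-fold higher. Srxn1 lost its 2-fold when its 4 probe sets were combined by their median (log2 0.95) or the suffixed one was left out (0.89). Nos2, inducible nitric oxide synthase, gave a signal under the floor on all 3 arrays (5.1 at 0 h, 3.4 at 2 h and 5.01 at 12 h). It has 1 probe set here, so an absent transcript and a probe set that does not respond cannot be told apart. Gch1, the enzyme for the Nos2 cofactor, was 4.25-fold higher (144 at 0 h, 319 at 2 h and 610.2 at 12 h). The arginine importer Slc7a2 was at least 2.09-fold higher, arginase 2 (Arg2) at least 2.37-fold higher, and Odc1, which makes putrescine, 2.77-fold higher (1519 at 0 h, 3309 at 2 h and 4207 at 12 h). By the median over probe sets Slc7a2 (log2 0.69) and Arg2 (0.77) were under 2-fold, which left 3 of the 5 higher genes of this list, and Gch1 was at 1.32.

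Transcription factors of the AP-1, EGR and C/EBP families had 3 of 22 members at least 2-fold higher and 2 lower. Cebpa, a factor of myeloid differentiation, was near its 0 h signal at 2 h and 3.33-fold lower at 12 h (307 at 0 h, 313 at 2 h and 92.3 at 12 h), whereas its relative Cebpd was 3.05-fold higher (121 at 0 h, 700.0 at 2 h and 370.1 at 12 h). Id2 had a deep minimum at 2 h (249 at 0 h, 31.6 at 2 h and 124 at 12 h, 2.01-fold lower at 12 h). Its 2-fold was lost under median scaling, quantile normalization and the pseudocount, each of which left 1 lower gene in the list. Fosl1, a late AP-1 member, was higher at each step (138 at 0 h, 251 at 2 h and 308 at 12 h, 2.23-fold higher), under 2-fold by the median of its probe sets.

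Some of the genes that were higher at 12 h lay side by side. Of the 260, 40 (15.4%) had a directly adjacent measured gene that was higher too, and 5.80% of all 8620 placed measured genes lay next to a higher gene. For the 207 lower genes the figures were 6 (2.90%) and 4.78%. The longest run was Gbp7, Gbp3, Gbp2b and Gbp2 on chromosome 3. Others were Ifit2, Ifit3 and Ifit1 on chromosome 19, Ccl6, Ccl3 and Ccl4 on chromosome 11, Serpinb6b, Serpinb9 and Serpinb9b on chromosome 13, and Pdpn, Dhrs3 and Tnfrsf1b on chromosome 4. Most of these runs are families of gene copies, whose probe sets may share signal, but Pdpn, Dhrs3 and Tnfrsf1b are not copies of one gene. Rsad2 with Cmpk2 on chromosome 12 and Itgam with Itgax on chromosome 7 were pairs.

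Other probe sets of the same genes gave an internal check of direction. Of the 260 higher genes, 93 had another measured probe set, whose median was also above 0 in 86, at least 1.5-fold in 66 and at least 2-fold in 49. Of the 207 lower genes, 83 had one, with 73 below 0, 36 at least 1.5-fold and 19 at least 2-fold lower. The median of the others was 1.07 for higher and -0.51 for lower genes. Signals under the floor were raised to it here too, which cuts the difference of a dim probe set. The dimmer one of Itga6, with 48.2 at 0 h and 5.01 at 12 h, thus counted as -0.46. These medians therefore do not measure how fully the sizes were repeated. Genes with both signals above the floor were ranked by mean signal into 5 bins. The share at least 2-fold higher ran from 0.979% in the dimmest to 3.79% in the brightest. The share at least 2-fold lower was smallest in the dimmest (1.57%) and largest in the middle bin (3.27%). This choice of genes itself limits the counts in the dimmest bin. A gene near the floor that differs 2-fold can have a signal under it and is then left out. The low shares of that bin therefore cannot show whether dim genes differed less often.

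**Figure D4:**
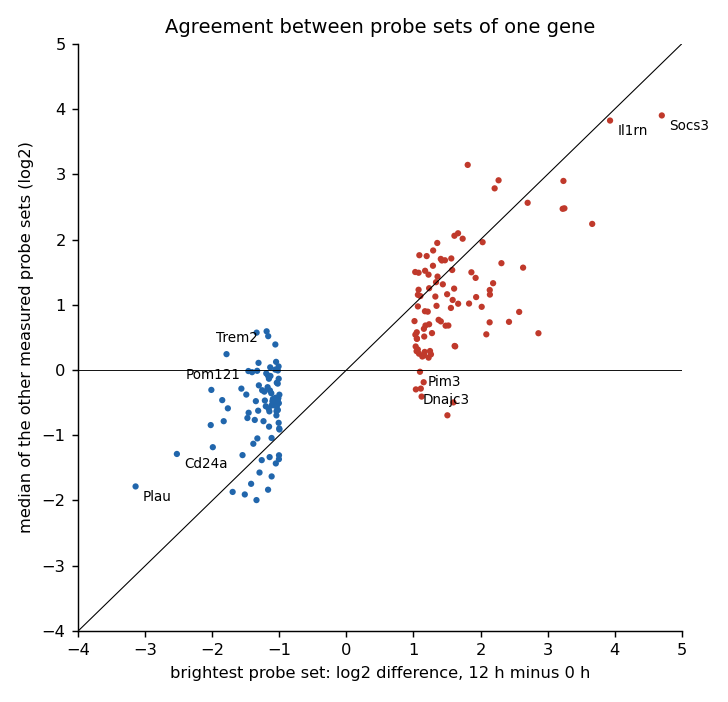
Log2 difference, 12 h minus 0 h, by the brightest probe set of a gene (horizontal axis) and by the median of its other measured probe sets (vertical axis), for the 93 higher (red) and 83 lower (blue) genes with more than 1; the diagonal is equality. Points below 0 on the right (7) and above 0 on the left (10) are genes whose other probe sets had the opposite direction.

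As a check of the label, 15 of 16 macrophage markers were above the floor on each array, with a summed signal of 25241 at 0 h, 25765 at 2 h and 28065 at 12 h. The summed signal of the lists for 9 other cell types was 157 to 757, with 1 to 6 members above the floor. In the T cell list Cd3d, Cd3e and Cd3g were under it on all 3 arrays, but Zap70 was above it on each (359 at 0 h, 305 at 2 h and 261 at 12 h). In the B cell list Blk (90.5, 35.1 and 46.0) and Cd22 (83.2, 65.0 and 69.4) were above it on each. The osteoclast list had 375, 430 and 757, through Mmp9 and Acp5, and the dendritic cell list 157, 253 and 361, through Ccl22. The part of other cells in the results was not tested. The 12 h array stood apart in its added controls. The 18 probe sets for bacterial and phage transcripts added before hybridisation (bioB, bioC, bioD and cre) had a median ratio of 2.52 (1.68 to 3.86) at 12 h against 0 h and of 0.989 at 2 h, and 3 probe sets for 18S ribosomal RNA 1.71 (1.32 to 2.53) at 12 h. Control probe sets for beta-actin had a median ratio of 1.09 and those for Gapdh 1.22. The 3′ to 5′ ratio, a sign of RNA integrity, was 1.11, 0.984 and 1.08 at 0, 2 and 12 h for beta-actin and 0.713, 0.665 and 0.677 for Gapdh. Every signal here is relative to the mean of its array with controls left out, so a rise or fall in mRNA per cell as a whole is not visible, and its part in the results was not tested.

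**Figure D5:**
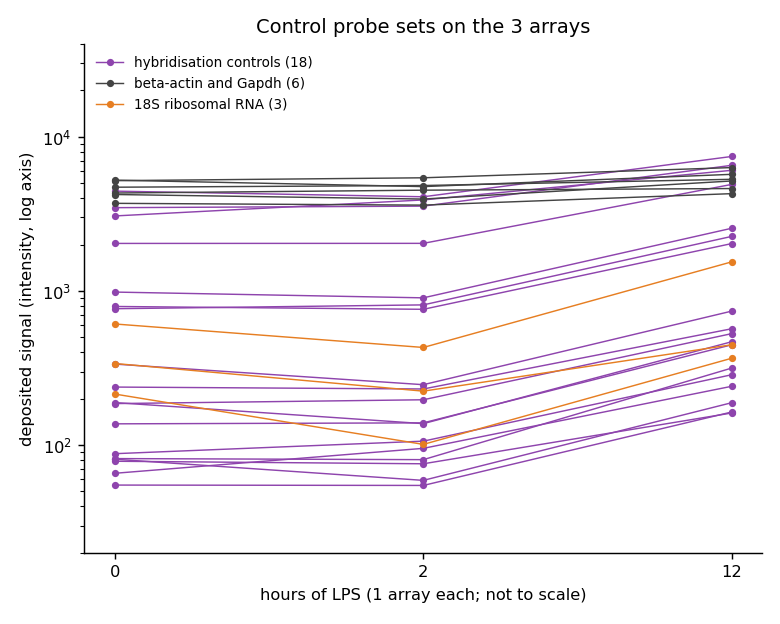
Deposited intensity (log axis) of the control probe sets at 0, 2 and 12 h of LPS, 1 array each: 18 hybridisation controls (purple), 6 for beta-actin and Gapdh (black) and 3 for 18S ribosomal RNA (orange). All 18 hybridisation controls are higher at 12 h than at 0 h, with a median ratio of 2.52, while the median ratios of beta-actin and Gapdh are 1.09 and 1.22.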

How the data were processed

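Intensity values, 1 per probe set and array, were used as the authors deposited them, on a linear scale. Their 2% trimmed mean was 150.05 on each array, which shows a scaling to one target before deposit. How the scan was read and normalized is not given in the sources used here. Per the labels' protocols, targets were made from 5 µg of total RNA.

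The 2% trimmed means over probe sets that are not controls were made equal (a step of less than 1%). Signals under the floor of 34.96 were raised to it on the way to log2, and a gene was read from its brightest probe set over the 3 arrays. Of 22690 probe sets, 20393 were annotated with 1 gene, 13 of them controls, 691 had several and 1606 were not listed. Of those with 1 gene, 20364 matched a RefSeq table of GRCm38.p6, used for names, order along chromosomes and promoter sequences. No build belongs to the array values. The number of arrays, 1 per time, limits the precision, and no test was made. A difference of at least 2-fold is a size and not a test. The 39 gene lists, 10 marker lists, the rule for named genes and the comparison itself were chosen with earlier results of these data known. Named genes were the 20 largest increases and decreases among genes with both signals above the floor, the 10 largest bounds each way, up to 8 members per list past 2-fold, or the 4 largest differences of a list with fewer than 4 such members. Tlr4, Cd14, Ly96, Myd88, Tnf, Nos2, Gapdh and Actb were always included. Not all of them are described. Other list members named are examples, picked with their values in view. Alternatives tried were other scalings, floors and folds, a pseudocount of 32, the median over probe sets, and probe sets without a letter suffix (_a_at included). The counting was tested on simulated data. Python 3.11.15, numpy 2.4.6, pandas 2.3.3 and matplotlib 3.10.9 were used.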

Additional observations from a re-analysis of the deposited data

Results flagged for a closer look

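Added control transcripts were brighter on the 12 h array. The median ratio of 12 h to 0 h was 2.52 over the 18 hybridisation control probe sets (bioB, bioC, bioD and cre), which no comparison between genes uses, and it was 0.989 at 2 h. For the 3 probe sets of 18S ribosomal RNA, the median ratio was 1.71 at 12 h. The part of either in the gene results was not tested.

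Among 745 measured probe sets with no gene in the annotation table, 19 were at least 2-fold higher and 13 at least 2-fold lower. The shares over all measured genes were 3.01% and 2.4%, so these counts are near the background. The largest difference was that of 1453238_s_at, 9.16-fold higher (235 at 0 h, 2132 at 2 h and 2151 at 12 h). Probe set 1427932_s_at was 7.89-fold higher (427, 1993 and 3369) and 1435137_s_at 6.72-fold higher (286, 987 and 1924). They are unnamed here, and each carries a suffix that marks possible cross-hybridisation.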

How the results depend on the processing

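Counts moved with the floor and the fold size. A floor at the 20th percentile gave 551 genes at least 2-fold higher and 493 lower, and one at the 60th percentile 171 and 113. A pseudocount in place of the floor left 210 higher and 105 lower. A fold of 1.5 gave 718 and 893 genes, and a fold of 3 gave 101 and 27. Median scaling (276 and 172), quantile normalization (283 and 181), no rescaling (260 and 212), the median over probe sets (241 and 169) and probe sets without a suffix (201 and 165) stayed within 1.5 times the reported 260 and 207. The median log2 difference of the antiviral list was 1.47 and 1.21 with the 2 floors, 1.22 with the pseudocount and 1.21 without suffixed probe sets. That of the chemokine list was 0.97 with either floor and 0.73 with the pseudocount. The complement and acute-phase list had a median of 0.085 with the 20th percentile floor and without suffixed probe sets, and of -0.10 with the pseudocount, a reversal. The nucleic acid sensor list had 1.06 with the 60th percentile floor and 1.02 without suffixed probe sets, the cytokine list 2.68 with the 60th percentile floor, and the integrin list 0.58 without suffixed probe sets. The mitosis list kept 14 to 20 lower genes and a negative median under all alternatives run. Of the genes named in the text as past 2-fold, those that reversed were Dnajc3 (-0.22 by the median over probe sets) and, without suffixed probe sets, Pim3 (-0.027), Trem2 (0.24) and H1f2 (0.34). Genes under 2-fold changed sign too, among them Cd47 (0.70, then -0.47) and Rpl41 (0.77, then -0.07), by the median over probe sets. Apart from fewer or more genes counted by construction, the cause was not tested. Of 160 named genes past 2-fold, 106 kept it under every alternative run at that fold and 54 lost it under at least 1. With 1 array per time, no replicate could be left out, and signals near the floor give bounds only. No paired analysis was possible because each time has 1 array.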

Other observations

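Of the 260 higher and 207 lower genes, 148 and 168 were in none of the 39 lists. The genes named here were picked from them after their values were seen and are given as values only. Among the higher genes, Slfn4 and Slfn2, of the Schlafen family, were 3.81-fold higher (710.3 at 0 h, 996 at 2 h, then 2706 at 12 h) and 4.74-fold higher (380.1 at 0 h, 2133 at 2 h and 1803 at 12 h), so that Slfn2 was high at 2 h already. The membrane protein gene Ms4a6d was 4.09-fold higher (249 at 0 h, 298 at 2 h, then 1016 at 12 h) and its neighbour Ms4a6b 2.03-fold higher. The poly-ADP-ribose polymerases Parp14 and Parp12 were 2.44-fold higher and 2.21-fold higher, the galectin Lgals9 4.06-fold higher (425 at 0 h, 345 at 2 h and 1724 at 12 h), Trim30a 2.83-fold higher and the nuclear body gene Sp100 2.4-fold higher. Serpinb9b and Serpinb6b, beside Serpinb9 on chromosome 13, were 3.25-fold higher and 2.33-fold higher. Ms4a6b and Serpinb6b were under 2-fold with the pseudocount (log2 0.92 and 0.89). Members of these families are alike in sequence and may share signal.

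Among the lower genes, the histone variants H2az2 and H2ax were 3.3-fold lower (279 at 0 h, 281 at 2 h, then 84.5 at 12 h) and 2.72-fold lower (1219 at 0 h, 879.7 at 2 h and 448 at 12 h), the linker histone H1f2 2.49-fold lower and the chromatin proteins Hmgb3 and Hmgb2 2.36-fold lower and 2.0-fold lower. Of the augmin complex, which branches spindle microtubules, Haus1 was 2.44-fold lower, Haus7 2.25-fold lower and Haus4 2.0-fold lower. The heterochromatin protein Cbx5 was 2.02-fold lower, against a log2 median of -0.21 over its 5 probe sets. Without suffixed probe sets H1f2 was above 0 (log2 0.34), and with the pseudocount Haus4 (-0.83), Haus7 (-0.75) and Hmgb2 (-0.97) were under 2-fold.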
